A study of Mus musculus with 3 samples.

Results

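Granzymes and perforin are the killing proteins that cytotoxic T cells and NK cells keep in granules, and the RNA of 8 of their genes was followed here: Gzma, Gzmb, Gzmc, Gzmd, Gzme, Gzmf, Gzmk and Prf1. They were taken by symbol, and all 8 were found among the 32285 genes of the deposited matrices. The libraries held CD45+ cells from B16F10 tumours, which are melanomas grown from a mouse line injected under the skin (C57BL/6 hosts). All mice had been given activated Pmel-1 cytotoxic T lymphocytes (CTL) by vein 9 days after tumour inoculation. Pmel-1 CTL are CD8 T cells whose receptor recognises the melanoma antigen gp100. The 3 groups were tumours taken 3, 7 and 14 days after that transfer, each as 1 library in which cells of 3 mice were pooled. The labels name both a cell sorter and magnetic beads for the isolation of CD45+ cells, and their cell type field holds a mouse strain. Mice without transfer were not analysed here, and no label tells transferred from host T cells.

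Perforin, the product of Prf1, forms pores in the membrane of a target cell, and granzymes are serine proteases that enter through them. Granzyme B cleaves caspases and other substrates after aspartate and starts apoptosis, while granzyme A and granzyme K cleave after basic residues. Gzmc, Gzmd, Gzme and Gzmf belong to a set of rodent granzymes that lies beside Gzmb and whose substrates are less well known. In mice, resting NK cells hold RNA of granzyme B and perforin with little of these proteins until they are activated, so RNA levels here are not levels of protein or of killing.

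Gzmb, Gzmc, Gzmd, Gzme and Gzmf all lie on the minus strand of chromosome 14, in 144.6 kb (GRCm38, GENCODE M21, chr14:56117626-56262260) that hold 7 granzyme genes in the order Gzme, Gzmd, Gzmg, Gzmn, Gzmf, Gzmc and Gzmb. Gzma (chr13:113093825-113100981) and Gzmk (chr13:113171608-113225908) are neighbours on the minus strand of chromosome 13. Prf1 (chr10:61297833-61304680) lies on the plus strand of chromosome 10. All 8 are protein-coding genes, with 3 exons in the longest coding transcript of Prf1, 6 in those of Gzma and Gzmk, and 5 in the others. The promoters of the chromosome 14 members are shown because these genes lie side by side and differed in level between gates. Single cells could hold several of them, and their sequences are in part nearly the same. They come from the RefSeq promoter table on GRCm38.p6, which listed all 8 members, and are written 5′ to 3′ on the strand of the gene. Capitals mark matches on either strand to 1 of 3 motifs searched, AP-1 (TGANTCA), RUNX (TGTGGT) and T-box (AGGTGTGA), none of whose marked matches overlap.
Gzmb, chr14:56262285-56262584: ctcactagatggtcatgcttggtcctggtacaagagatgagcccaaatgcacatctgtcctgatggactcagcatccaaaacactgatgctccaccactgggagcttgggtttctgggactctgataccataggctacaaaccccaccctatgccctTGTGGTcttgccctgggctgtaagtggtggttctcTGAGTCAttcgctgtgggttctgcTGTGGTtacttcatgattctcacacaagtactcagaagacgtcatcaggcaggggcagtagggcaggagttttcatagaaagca
Gzmc, chr14:56234608-56234907: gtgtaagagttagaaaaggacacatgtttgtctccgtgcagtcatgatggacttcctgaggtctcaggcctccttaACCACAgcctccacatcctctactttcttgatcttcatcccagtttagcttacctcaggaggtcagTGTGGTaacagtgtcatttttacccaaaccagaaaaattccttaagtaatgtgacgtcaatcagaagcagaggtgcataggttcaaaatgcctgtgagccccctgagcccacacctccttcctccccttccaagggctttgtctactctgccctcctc
Gzmd, chr14:56132544-56132843: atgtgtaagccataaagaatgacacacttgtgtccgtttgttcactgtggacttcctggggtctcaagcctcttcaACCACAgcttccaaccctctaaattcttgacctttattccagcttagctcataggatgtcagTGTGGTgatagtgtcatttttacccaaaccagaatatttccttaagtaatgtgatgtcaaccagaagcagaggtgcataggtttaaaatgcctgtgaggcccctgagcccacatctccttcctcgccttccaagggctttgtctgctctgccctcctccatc
Gzme, chr14:56120576-56120875: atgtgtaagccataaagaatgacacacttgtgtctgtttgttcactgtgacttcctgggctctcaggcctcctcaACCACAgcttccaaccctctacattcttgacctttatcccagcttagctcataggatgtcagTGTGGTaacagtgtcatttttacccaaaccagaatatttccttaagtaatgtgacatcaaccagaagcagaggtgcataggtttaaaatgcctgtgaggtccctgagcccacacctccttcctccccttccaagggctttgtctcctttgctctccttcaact
Gzmf, chr14:56211358-56211657: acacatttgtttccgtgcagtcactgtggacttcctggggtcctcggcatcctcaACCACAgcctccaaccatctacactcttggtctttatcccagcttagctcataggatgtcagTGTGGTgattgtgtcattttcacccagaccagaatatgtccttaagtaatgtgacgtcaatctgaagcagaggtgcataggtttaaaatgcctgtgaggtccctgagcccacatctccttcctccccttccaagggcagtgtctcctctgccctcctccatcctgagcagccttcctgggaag
The promoters of Gzmd and Gzme were 94.0% identical over the aligned bases, and that of Gzmc was 86.1% to 86.7% identical to those of Gzmd, Gzme and Gzmf. The Gzmb promoter was 56.0% to 61.2% identical to the other 4. To the promoters of Gzma, Gzmk and Prf1, on other chromosomes, it was 53.1%, 53.4% and 59.9% identical, so the 2 ranges overlap. Gzmb was the only one of the 8 members with an AP-1 match, TGAGTCA starting 58 bases before the RefSeq start site. In GENCODE M21 Gzmb starts at 56262260, downstream of this window, so the match lies farther from that start. Each of the 5 promoters held 2 RUNX matches. None of the 8 windows held a T-box match. Over all 27025 promoters in the table, 7.93% held the AP-1 motif, 16.9% the RUNX motif and 1.27% the T-box motif, and a match is a description of the letters only. The likeness reaches the transcript ends that 3′ counting reads: the last 300 bases of Gzmd and Gzme were 95.4% identical, those of Gzmd and Gzmf 89.1% and those of Gzme and Gzmf 91.0%. Differences are spread over these ends: of 251 words of 50 bases, Gzmd shared 0 with Gzme and 22 with Gzmf, and Gzme shared 0 with Gzmf. The split of counts between these genes and their neighbour Gzmg is treated here as uncertain, since how the authors' counting treated reads that match several genes is not given in the sources used here.

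At days 3, 7 and 14, 2775, 2600 and 2902 barcodes had at least 1500 UMIs (unique molecular identifiers, each counting 1 captured RNA molecule), with medians of 9515, 9212 and 9962 UMIs. Of these barcodes, 138, 180 and 87 also occurred in another library, with medians of 39214.5, 31435 and 40209 UMIs. Whether a shared barcode is 1 cell read in several libraries was not tested. The 12 comparisons of members between days or gates give 96 ratios. When shared barcodes were left out, 18 of those with counts on both sides moved by over 1.5 times and 6 gained or lost a call. The 6 changed calls are given beside the results below. Cells were gated on marker RNA. The CD8 T gate (at least 1 UMI of Cd3d or Cd3e and at least 1 of Cd8a or Cd8b1) held 480, 564 and 510 cells, and the NK gate (at least 2 UMIs of Ncr1 and Klrb1c, none of Cd3d or Cd3e) held 208, 401 and 158. The Treg gate (at least 1 UMI of Foxp3) held 54, 49 and 100 cells, of which 13, 8 and 19 also passed the CD8 T gate. NK markers summed to 4551, 4642 and 4246 CPM (counts per 1000000, the share of a gene in all UMIs of its gate) in the NK gate, against 311, 234 and 285 CPM in the CD8 T gate. Treg markers summed to 3484 to 4743 CPM in the Treg gate and to 829, 753 and 727 CPM in the CD8 T gate. The 5 CD8 T markers summed to 2769 to 3739 CPM in the CD8 T gate. In the Treg gate they summed to 1630, 2583 and 1734 CPM. Genes that set a gate are part of its sum: Ncr1 and Klrb1c for NK, Foxp3 for Treg, and Cd3d, Cd3e, Cd8a and Cd8b1 for CD8 T. These sums are thus in part fixed by the gating and do not check it.

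The gates were not pure. Myeloid markers summed to 954, 356 and 910.0 CPM in the CD8 T gate, and 101, 51 and 57 of its cells had at least 3 UMIs of the macrophage gene Lyz2. Myeloid cells also gave the background for the members: Gzmb was found in 8.15%, 3.19% and 2.16% of 1350, 908 and 1248 cells of the myeloid gate (Lyz2 present, T, NK and Treg gate genes absent; medians of 10440.5, 10672.5 and 11748 UMIs), at 7.72, 4.25 and 1.64 CPM. Gzma was found in 5.48%, 8.92% and 2.56% of them, and each of the other 6 members in at most 3.85%. Cells differ in depth, so shares of cells with a UMI are also given after thinning each cell to 3000 UMIs, which left out 35, 19 and 30 CD8 T cells, 22, 11 and 12 NK cells and 6, 3 and 9 Tregs. All intervals are 95% and cover counting error only. With 1 library a day there is no error between mice and no test, so a gene is called higher or lower below only by a rule of size: at least 1.5-fold, with an interval that excludes 1 and at least 20 UMIs over both sums. In a gate, fewer cells with a gene and less RNA in each of them give the same sum, which is why shares of cells stand beside the sums.

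In the CD8 T gate, RNA of most members was lower at each later day, and all 8 were lower by the rule of size at day 14 than at day 3. Gzmb was at 2098 (95% interval 2069 to 2127), 935 (916 to 955) and 599.9 (584 to 616) CPM at days 3, 7 and 14, so that day 7 was 2.24-fold and day 14 was 3.50-fold lower than day 3. Prf1 was at 486, 232 and 144 CPM, and Gzma, which differed more, at 612, 176 and 72.3 CPM. Day 14 was 3.38-fold (3.17 to 3.60) lower than day 3 for Prf1 and 8.47-fold (7.80 to 9.21) lower for Gzma. The 3 days do not overlap within counting error for any of these 3 genes. The spread between mice is unknown.

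The other members of the CD8 T gate split by when they were low. Gzmk, a granzyme typical in mice and humans of CD8 T cells short of full effector state, was at 89.4 and 88.3 CPM at days 3 and 7, a ratio of 1.01-fold, and at 46.8 CPM at day 14. Gzmc was at 334, 266 and 37.8 CPM and Gzmf at 101, 91.3 and 28.4 CPM, so both were within the rule of size between days 3 and 7, unless cells with Lyz2 were left out as given below, and then lower at day 14, by 7.02-fold (6.26 to 7.90) for Gzmc and 3.22-fold (2.79 to 3.72) for Gzmf. Gzmd and Gzme were low already at day 7: Gzmd was at 64.8, 10.1 and 4.02 CPM and Gzme at 67.0, 12.2 and 11.5 CPM, but 1 cell held 429 of the 620 Gzmd UMIs of day 3. Gzma, Gzmb, Gzmd, Gzme and Prf1 thus had most of their difference between days 3 and 7, and Gzmc, Gzmf and Gzmk theirs between days 7 and 14.

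In counts, 5 of 8 members were lower and 0 higher at day 7 than at day 3 in the CD8 T gate, where 10.9% of 11323 genes were lower and 5.78% higher. Between days 14 and 7, 7 of 8 were lower and 0 higher, against 3.76% and 5.69% of 11249 genes, with Gzme the exception at a log2 ratio of -0.08. Between days 14 and 3, 8 of 8 were lower and 0 higher, against 6.06% and 4.33% of all genes measured. The median log2 ratio of the members was -2.18 between days 14 and 3, beside -0.10 for all genes, and -1.12 between days 7 and 3, beside -0.08. These comparisons share libraries. Without barcodes shared between libraries, which were 87, 91 and 48 of the CD8 T cells, Gzmb was at 1972, 820.2 and 500.4 CPM, Gzma at 904, 225 and 89.0 CPM, and Gzmc at 320.5, 219 and 27.8 CPM. Prf1 was then at 153 CPM at day 14 against 196 CPM at day 7, 1.28-fold lower, so its call between these days was lost. Without the cells that held at least 3 Lyz2 UMIs or at least 2 of the B cell genes Cd79a and Ms4a1, Gzmb was at 2293, 977 and 656 CPM and Prf1 at 593, 245 and 166 CPM, in the same order of days. Day 14 was then 1.49-fold lower than day 7 for Gzmb and 1.47-fold for Prf1, just under the limit of 1.5-fold. Gzmc and Gzmf were then also lower by the rule at day 7 than at day 3, by 1.57-fold and 1.55-fold.

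**Figure D1:**
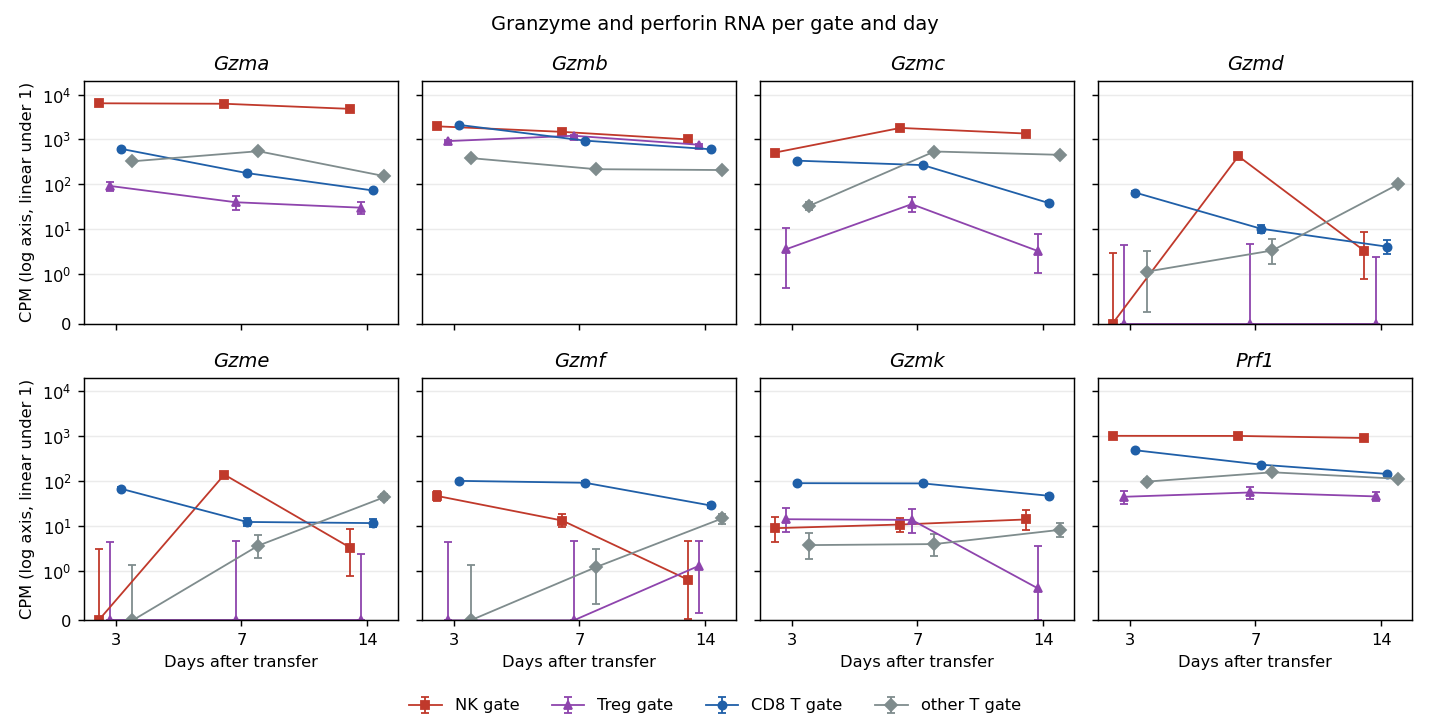
RNA level of each member (CPM, log axis that is linear under 1) by day after transfer (x axis) in the NK, Treg, CD8 T and other T gates; bars are 95% counting intervals of 1 library a day. Gzma stays near 6376, 6220.3 and 4784 CPM in the NK gate beside 612, 176 and 72.3 CPM in the CD8 T gate.

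Fewer CD8 T cells held the RNA at later days. Gzmb was found in 79.4%, 60.6% and 47.8% of CD8 T cells at days 3, 7 and 14, and after thinning in 69.7%, 45.9% and 34.0%. Prf1 was found in 61.2%, 56.6% and 43.5% (thinned 37.3%, 29.5% and 18.8%), and Gzma in 35.8%, 23.4% and 12.9% (thinned 21.6%, 12.1% and 5.62%). For Gzmb, Prf1 and Gzma the order of days was the same with and without thinning, and all these shares were above those of the myeloid gate. Gzmk was found in 33.5%, 32.4% and 21.2% of CD8 T cells (thinned 17.1%, 18.7% and 13.3%), and Gzmc in 22.3%, 18.3% and 7.84% (thinned 11.7%, 10.5% and 2.92%). Gzmd, Gzme and Gzmf were each found in at most 6.88% of CD8 T cells on any day. Cells that kept the RNA also held less of it: among CD8 T cells with Gzmb, the level of Gzmb was 2338, 1350 and 1039 CPM, with medians of 20, 11 and 6 UMIs a cell.

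**Figure D2:**
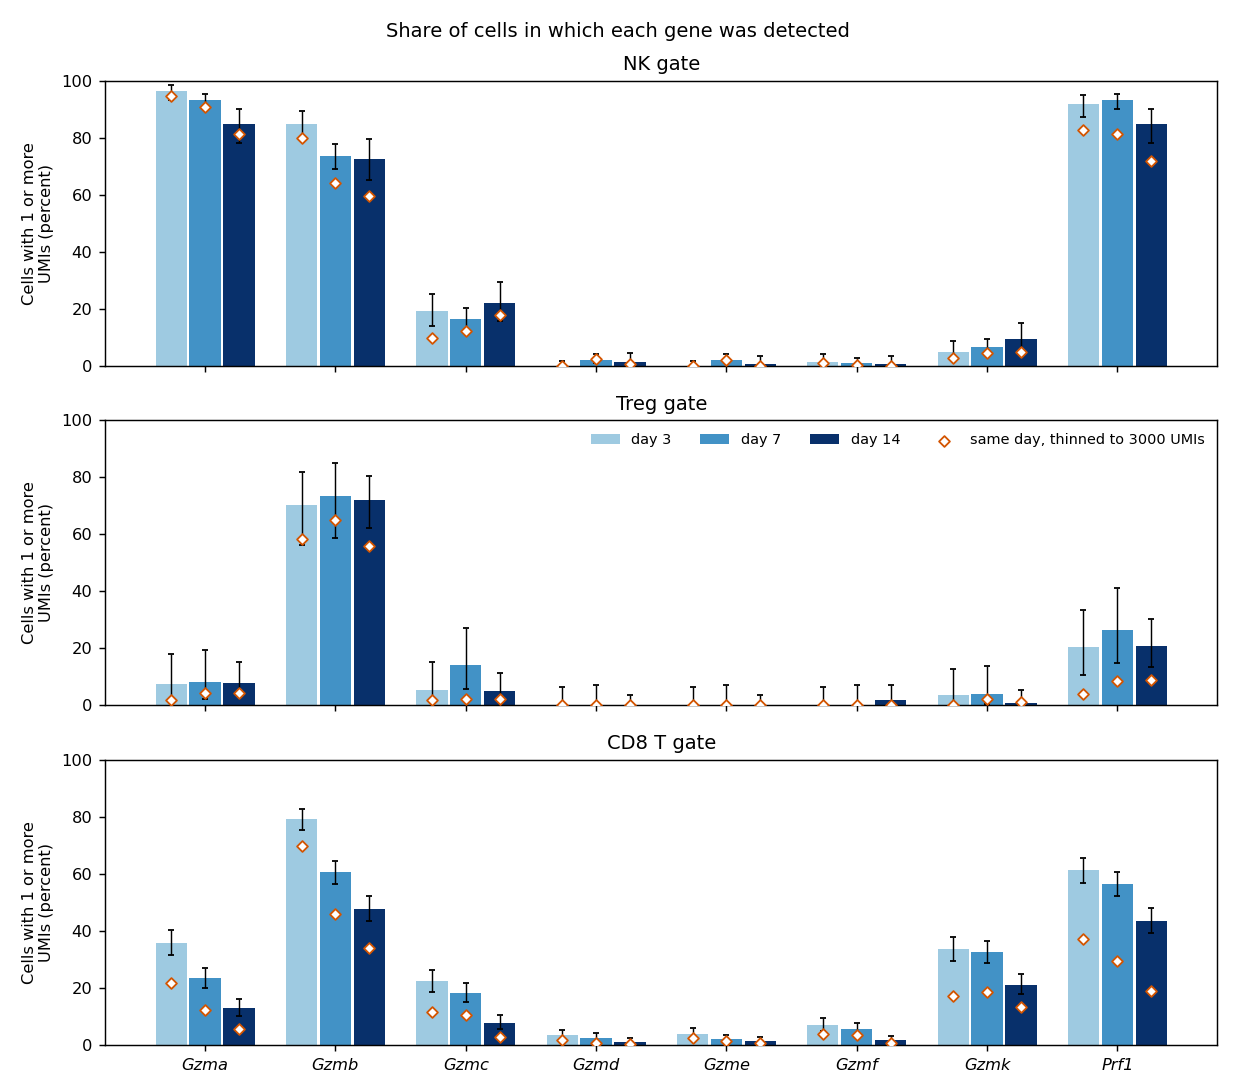
Share of cells (percent, y axis) with at least 1 UMI of each member (x axis) in the NK, Treg and CD8 T gates at days 3, 7 and 14; the thinned marks show the same day after reduction of every cell to 3000 UMIs. Gzmb detection is 79.4%, 60.6% and 47.8% in the CD8 T gate and 70.4%, 73.5% and 72.0% in the Treg gate.

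The NK gate kept its Gzma and Prf1 RNA across the 3 days. Gzma was at 6376, 6220.3 and 4784 CPM at days 3, 7 and 14 and found in 96.6%, 93.3% and 84.8% of cells. Prf1 was at 1019, 1014 and 912 CPM and found in 91.8%, 93.3% and 84.8% of cells. Neither was higher or lower by the rule of size between any 2 days, and after thinning Gzma was still found in 94.6%, 90.8% and 81.5% of NK cells. Gzmb was at 1953, 1468 and 994 CPM, and day 14 was 1.97-fold (1.83 to 2.11) lower than day 3. Gzmk was at 8.85, 10.7 and 13.9 CPM and reached 2 UMIs at most in any NK cell.

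Gzmc was higher in the NK gate at day 14 than at day 3. Gzmd and Gzme were high at day 7 alone, but only under the Cd3d rule of this gate. With the gate set by Cd3e alone, as given below, Gzmd was at 382 and 275 CPM at days 7 and 14. Gzme was then at 128 and 121 CPM, and 1 cell held 286 of the 417 Gzmd UMIs of day 14. The level of Gzmc at day 7 depended on a few barcodes. Gzmc was at 504, 1797 and 1345 CPM, so that day 7 was 3.56-fold (3.28 to 3.88) and day 14 was 2.67-fold (2.43 to 2.93) higher than day 3. Gzmd had 0, 1220 and 4 UMIs and Gzme 0, 403 and 4. With a floor of 3 counts for day 3, day 7 was at least 174-fold higher for Gzmd and at least 57.5-fold higher for Gzme, and day 14 was 129-fold (50.2 to 474) and 42.6-fold (16.5 to 157) lower than day 7. Gzmf went the other way, with 58, 38 and 1 UMIs. These values rest on few cells: 9 NK cells held all Gzmd UMIs of day 7, and 3 cells held 50% of its Gzmc UMIs.

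Part of the NK difference stood on shared barcodes. At day 7, 8 NK barcodes, with a median of 29930 UMIs, also occurred in another library, where they had 503 to 2195 UMIs. The barcode with 28233 UMIs held 1014 of Gzmc and 273 of Gzmd. It had 20 and 8 of 669 UMIs at day 3, and 25 and 5 of 515 at day 14. The barcode with 42638 UMIs held 1116 and 327. It had 14 and 4 of 899 UMIs at day 3, and 16 and 5 of 694 at day 14. The barcode with 44524 UMIs held 8 and 0, and 0 of both genes in the other libraries. Whether the counts elsewhere came from day 7 cells was not tested. The 8 barcodes held 64.5% of the Gzmc UMIs, 91.6% of the Gzmd UMIs and 94.7% of the Gzmf UMIs of the gate. Without them, day 7 was at 694 CPM for Gzmc, 38.5 for Gzmd and 21.3 for Gzme, Gzmf had 2 UMIs, and without the 1 shared barcode of day 14 Gzmc was at 1350 CPM. All 8 had their larger total in the day 7 library, so leaving a shared barcode out only in the library with fewer UMIs changed no NK level. Gzmc was therefore higher at day 14 than at day 3 with or without shared barcodes, while its level at day 7 was 694 or 1797 CPM. Without them Gzmc was 1.38-fold (1.26 to 1.51) higher at day 7 than at day 3, under the rule of size, and 1.95-fold (1.82 to 2.08) higher at day 14 than at day 7, past it. In counts, 3 of 8 members (Gzmc, Gzmd, Gzme) were higher and 1 (Gzmf) lower at day 7 than at day 3 in the NK gate, against 3.27% and 5.10% of 8902 genes. Between days 14 and 7, 3 of 8 were lower (Gzmd, Gzme, Gzmf) and 0 higher, against 5.48% and 3.50% of 8904 genes. Without shared barcodes these counts were 2 higher (Gzmd, Gzme) and 1 lower (Gzmf) at day 7 against day 3, and 1 higher (Gzmc) and 2 lower (Gzmd, Gzme) at day 14 against day 7, where Gzmf had too few UMIs to be called. Day 14 was then 11.8-fold (4.46 to 44.0) lower than day 7 for Gzmd and 6.51-fold (2.41 to 24.7) lower for Gzme. Both values hold for the gate with the Cd3d rule. Without NK cells that held myeloid or B cell RNA as above, Gzmb was 1.53-fold lower at day 7 than at day 3 and Gzmc 1.56-fold lower at day 14 than at day 7, both past the rule, and Gzmf had too few UMIs to be called between days 14 and 7. Between days 14 and 3, of the 6 measured members, Gzmc was higher and Gzmb and Gzmf lower, against 3.98% and 8.15% of 7791 genes.

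Set beside the CD8 T gate of the same day, the NK gate had more Gzma and Prf1 on all 3 days, and the distance was wider at later days. Gzma was 10.4-fold, 35.3-fold and 66.2-fold higher in the NK gate at days 3, 7 and 14, and Prf1 2.10-fold, 4.38-fold and 6.34-fold higher. Gzmb, in contrast, was at 1953 CPM in the NK gate and 2098 CPM in the CD8 T gate at day 3, within the rule of size, and was higher in the NK gate by 1.57-fold (1.51 to 1.63) at day 7 and 1.66-fold (1.56 to 1.76) at day 14. Without cells that held myeloid or B cell RNA as above, these were 1.43-fold and 1.49-fold, under the rule of size. Gzmk was lower in the NK gate on all 3 days, by 10.1-fold (5.62 to 20.3), 8.27-fold (5.78 to 12.3) and 3.38-fold (2.08 to 5.85), and Gzmf by 2.16-fold, 6.98-fold and 34.8-fold (6.19 to 1381), the last from 1 UMI in the NK gate. Without shared barcodes Gzmf at day 7 was at 0.75 CPM, from 2 UMIs, in the NK gate and 124 CPM in the CD8 T gate, 166-fold (45.8 to 1374) lower, and at day 3 it was 3.28-fold lower. The direction of Gzmf at day 14 depended on the gate: with the NK gate set by Cd3e alone, its log2 ratio was 0.40. That value rested on 1 cell with 51 of the 57 Gzmf UMIs of the NK gate. Gzmk RNA thus lay mainly on the CD8 T side, and Gzma and Prf1 RNA on the NK side, as a share of the UMIs of the gate. Without shared barcodes, the NK gate was still above the CD8 T gate at day 7 for Gzmc, at 694 against 219 CPM, Gzmd, at 38.5 against 11.8 CPM, and Gzme, at 21.3 against 11.5 CPM. By the rule of size, 3 members were higher and 4 lower in the NK gate at day 3 (15.8% and 18.3% of 10551 genes), 6 higher and 2 lower at day 7 (16% and 15% of the genes measured), and 4 higher and 3 lower at day 14 (11.3% and 13.5%). The Gzmc difference at day 3, 1.51-fold (1.38 to 1.65) higher in the NK gate, rested on 1 cell with 269 of 627 UMIs, and without the highest cell of each gate its log2 ratio was -0.0077. Without cells that held myeloid or B cell RNA it was 0.39, under the rule of size.

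The gate that held most of the members' UMIs differed by day. The NK gate held 23.2%, 57.0% and 41.0% of all UMIs of the 8 members in the libraries at days 3, 7 and 14, and the CD8 T gate 69.5%, 30.8% and 34.1%. These shares also move with how many cells of each kind were loaded, which the pooling of CD45+ cells does not fix. Over all barcodes, the 8 members together were at 1637, 1933 and 683 CPM.

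Tregs, which restrain other T cells and in tumours of mice can use granzyme B, held Gzmb RNA and little of the other members. Gzmb was at 913 (850 to 979), 1202 (1128 to 1280) and 755 (712 to 799) CPM in the Treg gate, and 70.4%, 73.5% and 72.0% of its cells had at least 1 UMI (thinned 58.3%, 65.2% and 56.0%). Against the CD8 T gate it was 2.30-fold (2.14 to 2.47) lower at day 3, and at days 7 and 14 it was 1.29-fold (1.20 to 1.37) and 1.26-fold (1.18 to 1.34) higher, both within the rule of size. The 13, 8 and 19 cells that passed both gates count in both, here and in the shares of cells below. The intervals take the 2 sums as separate. The calls of Gzmb depended on the cells used. Without shared barcodes, 7, 11 and 5 of the Treg cells, Gzmb was at 775, 1666 and 806 CPM in the Treg gate and at 1972, 820.2 and 500.4 CPM in the CD8 T gate, which made it 2.03-fold (1.87 to 2.21) higher at day 7 and 1.61-fold higher at day 14. Without cells that held at least 3 Lyz2 UMIs or at least 2 of Cd79a and Ms4a1, the Treg gate kept 32, 44 and 79 cells with Gzmb at 1441, 1279 and 1018 CPM, so that day 3 and not day 7 was its highest day. Against the CD8 T gate without such cells, Gzmb was then 1.59-fold lower at day 3 and 1.55-fold (1.45 to 1.66) higher at day 14. Prf1 was at 44.4, 55.4 and 45.3 CPM, 10.9-fold, 4.18-fold and 3.18-fold lower than in the CD8 T gate, and 19.3-fold lower at day 3 without shared barcodes. By counts, 8, 7 and 7 of 8 members were lower in the Treg gate than in the CD8 T gate, where 5.85%, 5.19% and 5.51% of all genes measured were lower. Gzmd and Gzme had 0 UMIs in the Treg gate on all 3 days, and a single cell held 93.6%, 84.4% and 80.4% of its Gzma UMIs. The commonest pattern in a Treg was Gzmb with none of the other 7 members, in 44.4%, 44.9% and 47.0% of cells. Among Tregs with Gzmb, 28.9% (15.4% to 45.9%), 27.8% (14.2% to 45.2%) and 26.4% (16.7% to 38.1%) also had Prf1, against 72.4%, 75.4% and 61.9% of CD8 T cells with Gzmb. After thinning these shares were 7.14%, 10.0% and 13.7% in Tregs and 46.1%, 44.0% and 35.6% in CD8 T cells. Myeloid markers in the Treg gate summed to 2494, 326 and 1542 CPM.

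Genes differed in how evenly their UMIs were spread over the cells that held them. In the NK gate, 50% of the Gzma UMIs lay in 46, 71 and 24 cells at days 3, 7 and 14, which were 22.9%, 19.0% and 17.9% of the cells with Gzma. For Gzmc the same share lay in 2, 3 and 4 NK cells, of 40, 66 and 35 with a UMI, and the single highest cell held 269, 1116 and 304 UMIs. Gzmc detection in the NK gate was 19.2%, 16.5% and 22.2% (thinned 9.68%, 12.3% and 17.8%), so the higher sum at day 7 came with a share of cells near that of day 3. In the CD8 T gate, 50% of the Gzmb UMIs lay in 39, 34 and 15 cells, and 50% of the Gzma UMIs in 16, 9 and 4 cells. At day 14 a single CD8 T cell held 21.6% of Gzma, 10.3% of Gzmb and 12.8% of Prf1 UMIs, so the day 14 sums lean on fewer cells. Gzmk UMIs were spread more evenly than those of Gzmb over the cells that held them, with 50% in 25, 39 and 18 of 161, 183 and 108 cells and at most 68 UMIs in any cell.

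**Figure D3:**
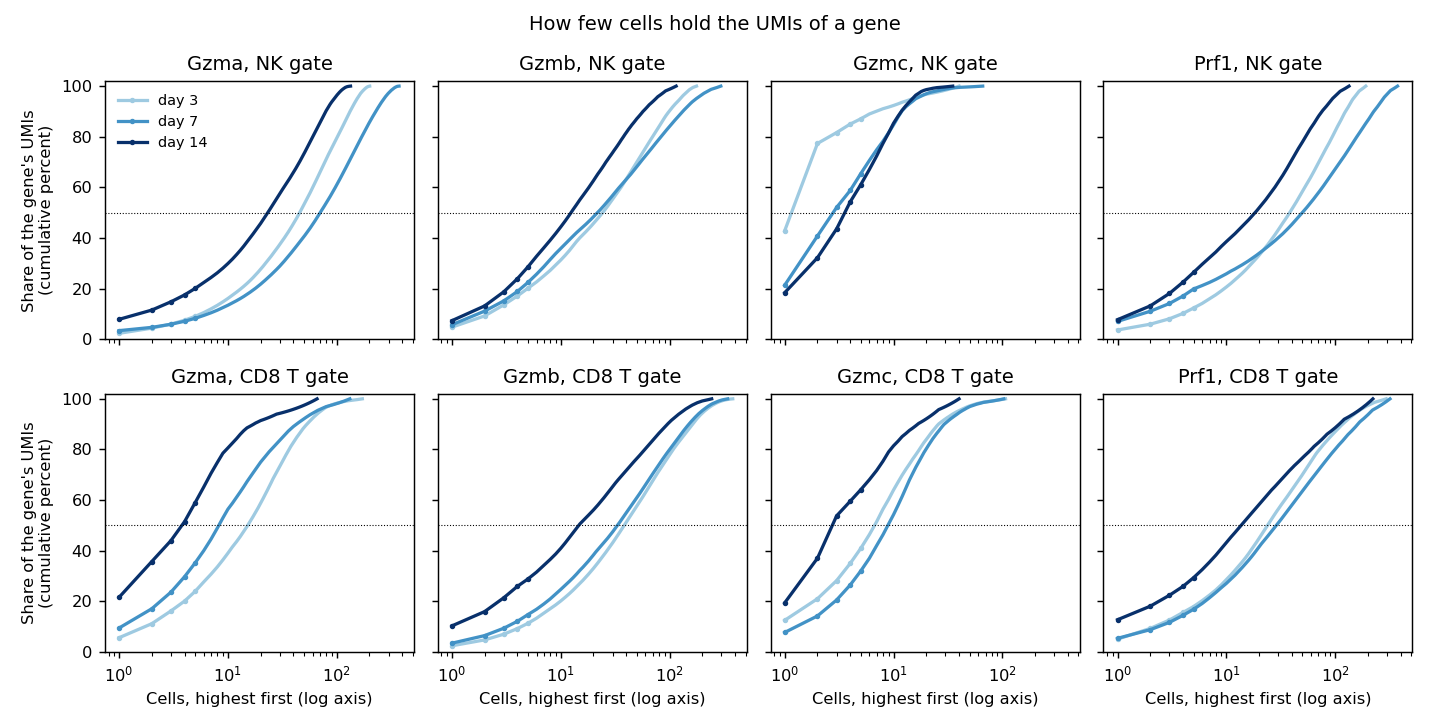
Cumulative share of a gene's UMIs (percent, y axis) against the number of cells ranked from the highest (x axis, log scale), for Gzma, Gzmb, Gzmc and Prf1 in the NK gate (top) and the CD8 T gate (bottom) at days 3, 7 and 14. The dotted line is 50%, which Gzmc reaches with 2, 3 and 4 NK cells and Gzma with 46, 71 and 24.

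A split chosen after the values were seen separates the NK cells with at least 10 Gzmc UMIs, 6, 23 and 18 cells at days 3, 7 and 14, from the other 202, 378 and 140. The split cells were deeper, with medians of 10865.5, 16256 and 19035 UMIs against 4828.5, 5805.5 and 5444. In them Gzmc was at 7068, 11720 and 4533 CPM, and in the others at 59.3, 47.0 and 40.2 CPM. Gzma was at 1089, 3717 and 2465 CPM in the split cells and at 6735, 6662 and 5733 CPM in the others, so cells with much Gzmc had less Gzma per UMI on all 3 days. Nearly all Gzmd of the gate was in them at day 7, at 2794 CPM against 1.62 CPM. The proliferation gene Mki67 was at 12.7, 131 and 272 CPM in the split cells and at 24.9, 17.4 and 12.6 CPM in the others. Eomes, a transcription factor of conventional NK cells, was at 88.7, 119 and 129 CPM against 291, 240.3 and 262 CPM. Of the 6 NK markers, Eomes among them, 5, 4 and 4 were lower in the split cells by the rule of size and 0 higher, while Ncr1, which set the gate, was at 456, 584 and 483 CPM in the split cells and 485, 511 and 495 CPM in the others. Markers of type 1 innate lymphoid cells (ILC1) summed to 50.7, 443 and 449 CPM in the split cells and to 111, 128 and 207 CPM in the others. Of the 6, 0 of 3 measured were higher at day 3, 4 of 6 at day 7, and 3 of 5 at day 14, when 1 was lower. The share of all genes higher or lower in the split cells was not computed. Whether these counts of NK and ILC1 markers exceed that share is therefore not known. Without shared barcodes the split at day 7 held 17 and 376 cells, with Gzma at 1907 and 6786 CPM and Mki67 at 54.9 and 7.44 CPM.

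A small set of cells held most RNA of the Gzmd, Gzme and Gzmf block. Cells with at least 10 UMIs of Gzmd, Gzme, Gzmf and Gzmg together, a limit set after the values were seen, numbered 2, 8 and 0 in the NK gate, 16, 20 and 5 in the CD8 T gate, and 0, 1 and 5 among other T cells (Cd3d or Cd3e present, Cd8a, Cd8b1 and Foxp3 absent). The mix of genes differed between gates. In the 8 NK cells of day 7, Gzmd made up 66.6%, Gzme 21.8% and Gzmf 1.86% of these UMIs, and Gzmd led in all 8. In the CD8 T cells Gzmf made up 42.1%, 80.1% and 65.9%, and led in 10 of 16, 17 of 20 and 4 of 5 cells. Both NK cells of day 3 held Gzmf alone of the 4 genes. Each of these NK and CD8 T cells also held Gzmb and Prf1, and Gzmc was in all of the NK cells and in 16, 18 and 4 of the CD8 T cells. The CD8 T cells of day 3 had a median of 34449 UMIs, so they were among the deepest of their gate. Of the 8 NK cells, 4 carried barcodes shared with another library, and of the CD8 T cells 3, 7 and 1 did, none of them with its smaller total here.

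The 5 other T cells of day 14 in that set had 0 UMIs of Cd3e and at least 3 of Ncr1 each, so a Cd3d UMI alone had kept them out of the NK gate. Gzmg made up 52.6% of their block UMIs, nearly all in 1 cell, and Gzmd 30.2%. When the NK gate was set by Cd3e alone, an alternative chosen after this was seen, it held 225, 435 and 180 cells, and its Gzmd was at 0.69, 382 and 275 CPM, its Gzme at 0, 128 and 121 CPM and its Gzmf at 39.9, 12.7 and 37.6 CPM. Gzmc was then at 474, 2005 and 2261 CPM, and Gzma at 5775, 5945 and 4135 CPM. The low Gzmd, Gzme and Gzmf of the NK gate at day 14 thus depended on the Cd3d rule, and the high Gzma and Gzmc did not. In the gate set by Cd3e alone, 1 cell of day 14 held 286 of the 417 Gzmd UMIs. The same cell held 51 of the 57 Gzmf UMIs. The other T gate as a whole held much myeloid RNA, with myeloid markers at 7124, 5176 and 4600 CPM. Its NK markers summed to 1721, 1785 and 1366 CPM, of which Tyrobp, a gene that myeloid cells also use, made up 1490, 1439 and 1191 CPM, and in the myeloid gate the same sum was 2212, 2516 and 2243 CPM. The other T gate had Gzma at 323, 543 and 151 CPM and Gzmb at 381, 215 and 206 CPM.

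**Figure D4:**
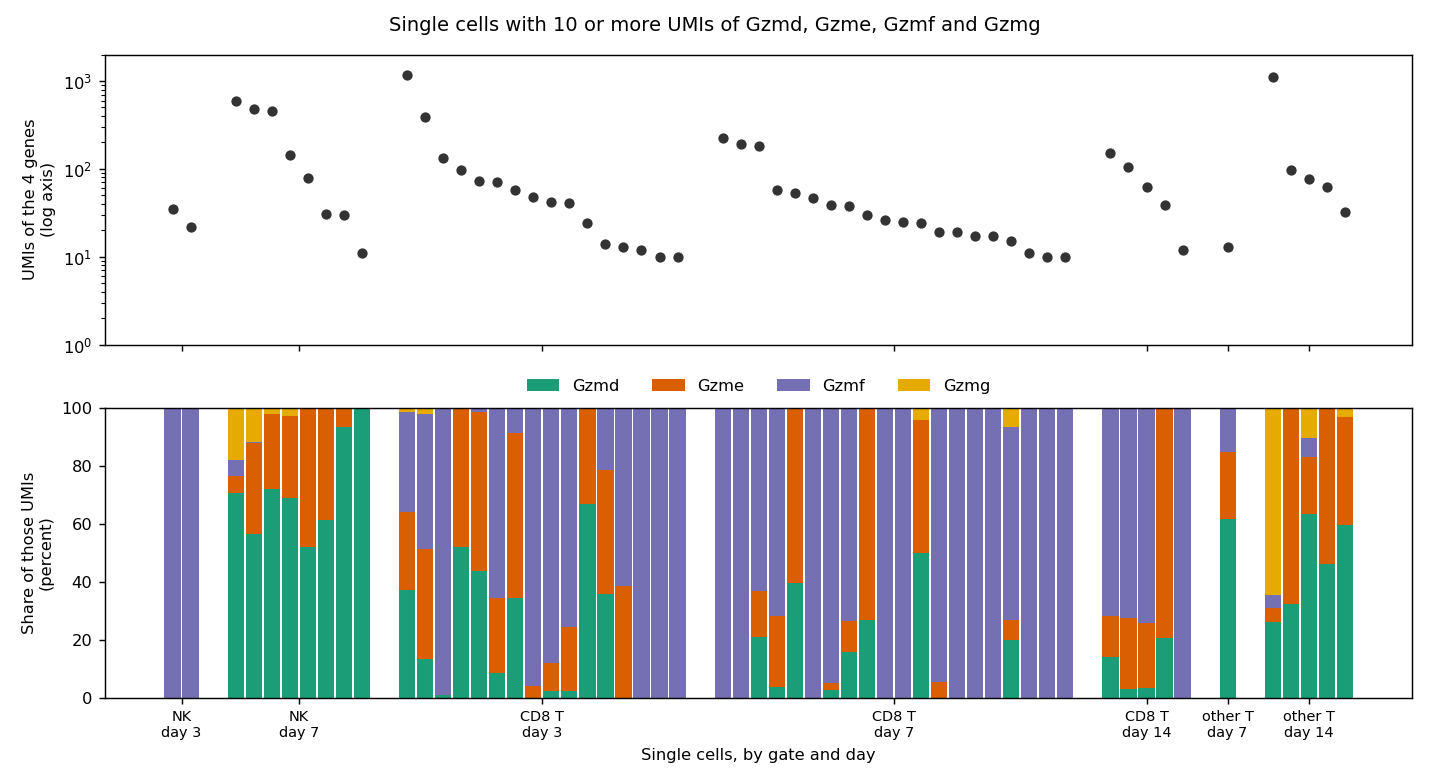
Single cells with at least 10 UMIs of Gzmd, Gzme, Gzmf and Gzmg, by gate and day (x axis, 1 position a cell): their UMIs of the 4 genes (top, log axis) and the share of each gene in them (bottom, percent). Gzmd leads in all 8 NK cells of day 7, and Gzmf in 17 of 20 CD8 T cells of that day.

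Cells that held 1 granzyme often held another, and CD8 T cells held fewer kinds at later days. At least 2 of the 7 granzymes were found in 86.1%, 75.1% and 76.6% of NK cells (thinned 81.2%, 67.2% and 63.0%), in 11.1%, 14.3% and 11% of Tregs (thinned 4.17%, 6.52% and 4.40%) and in 62.3%, 47.7% and 26.7% of CD8 T cells (thinned 41.1%, 27.0% and 11.7%) at days 3, 7 and 14. CD8 T cells with none of the 7 were 16.2%, 29.6% and 42.0% of the gate. The commonest pattern in NK cells was Gzma, Gzmb and Prf1 together with no other member, in 59.6%, 50.4% and 44.9% of cells. CD8 T cells had no such leading pattern apart from cells with none of the 8 members, which were 13.5%, 22.3% and 31.4%. Gzmb, Gzmk and Prf1 alone together made up 11.7%, 14.2% and 7.06%, and Gzmb and Prf1 alone 10.6%, 9.04% and 11.4%. These patterns depended on depth. After thinning, Gzmb with no other member was the commonest pattern with any member, in 15.5%, 13.2% and 14.4% of CD8 T cells. Gzmb, Gzmk and Prf1 alone together then made up 5.17%, 6.06% and 2.08%. No cell of the NK, Treg, CD8 T or other T gate held all 7 granzymes, and 4, 3 and 2 CD8 T cells held 6.

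Perforin went with granzymes. Prf1 was found in 69.9%, 70.0% and 56.8% of CD8 T cells with a granzyme (thinned 44.2%, 40.7% and 30.2%) and in 16.7%, 24.6% and 25.2% of those without (thinned 17.9%, 15.4% and 10.4%). Of CD8 T cells with Prf1, 93.9%, 80.9% and 68.0% also had Gzmb. After thinning the shares with Gzmb were 86.1%, 68.3% and 64.4%. The share of Prf1 cells that lacked Gzmb was thus larger at later days, but so was that share of all CD8 T cells, as given above. On each day Gzmb was found more often in cells with Prf1 than in the whole gate, with and without thinning. Gzmk, which is often described in cells with little cytotoxic cargo, was here found with Gzmb in 95%, 89.6% and 73.1% and with Prf1 in 83.9%, 81.4% and 61.1% of its CD8 T cells. Deeper cells show more genes, so thinned shares are nearer to a like comparison, and they were 84.2%, 81.4% and 64.1% for Gzmk cells with Gzmb, against 66.7%, 37.7% and 29.3% of CD8 T cells without Gzmk.

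Pairs of members differed in how often they met in CD8 T cells. Gzmd and Gzme met far more often than the product of their shares: 12 of 16, 8 of 14 and 5 of 5 cells with Gzmd also had Gzme, 20, 29.3 and 72.9 times that product, and the split of counts between these genes is uncertain as given above. Gzmf was found with Gzmc in 81.8%, 83.9% and 37.5% of its 33, 31 and 8 cells. Gzma and Gzmk met 1.13, 1.24 and 1.72 times as often as the product of their shares, and 1.22, 1.54 and 3.89 times after thinning. Gzmc and Gzmk did not meet above the product in the same way: the ratio was 1.0, 1.17 and 0.59, and after thinning they met in 4, 10 and 0 cells. In the NK gate, where nearly every cell has Gzma, cells with Gzmc had it less often, in 95%, 84.8% and 68.6% of 40, 66 and 35 cells, against 97.0%, 94.9% and 89.4% of NK cells without Gzmc.

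**Figure D5:**
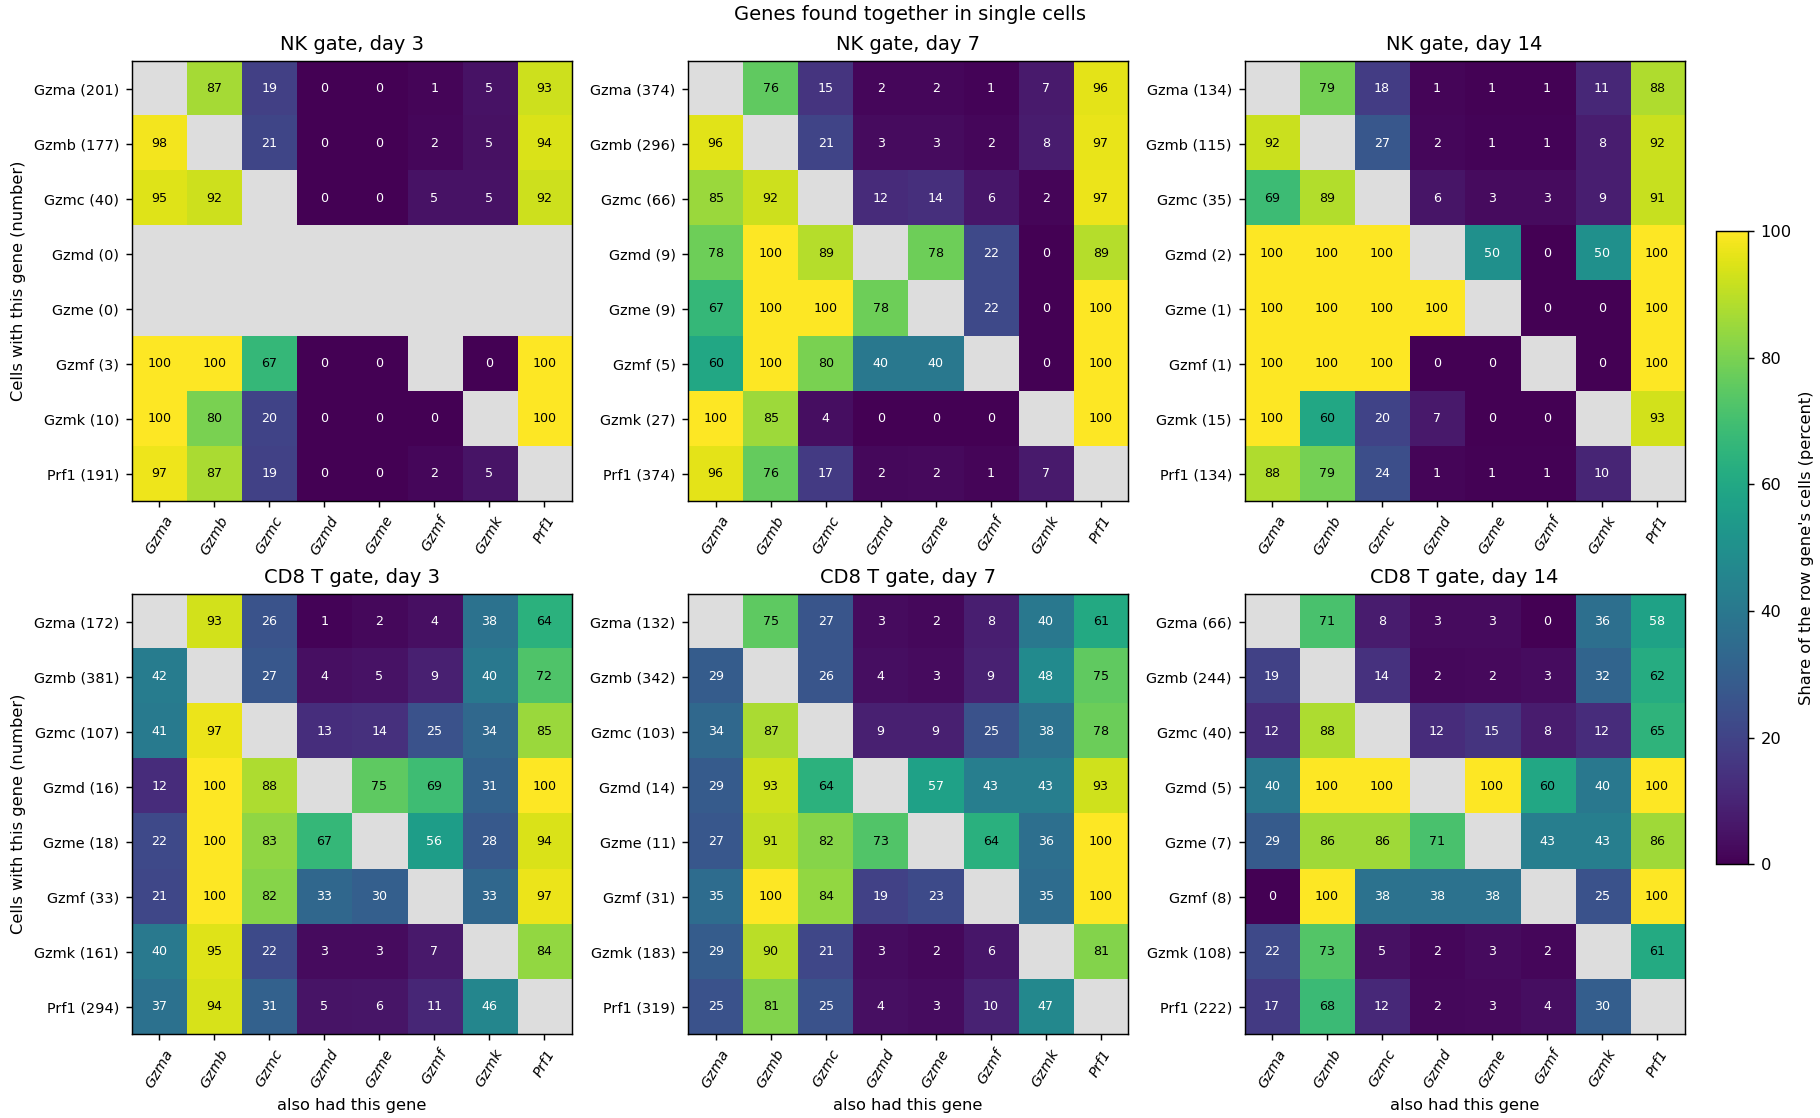
For NK cells (top) and CD8 T cells (bottom) at days 3, 7 and 14, the share (colour and printed value, percent) of the cells with the row's gene that also had the column's gene; the number of cells with the row's gene is in brackets. Prf1 was found in 72.4%, 75.4% and 61.9% of CD8 T cells with Gzmb, and the rows of Gzmd, Gzme and Gzmf hold 33 cells at most.

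CD8 T cells with Gzmb RNA had less Tcf7 and Il7r and more Havcr2 than those without. Of a list of 20 genes of T cell state, 7, 8 and 7 were higher and 8, 7 and 6 lower in cells with Gzmb at days 3, 7 and 14, with 4 higher and 5 lower on every day. Cells with Gzmb numbered 381, 342 and 244 and were deeper, with medians of 18153, 15498.5 and 13483 UMIs against 6635, 9527 and 9162. Tcf7, the transcription factor of memory and stem-like T cells, was at 26.7, 31.1 and 66.1 CPM in cells with Gzmb and at 192, 227 and 232 CPM in cells without, log2 ratios of -2.85, -2.87 and -1.81. Havcr2, the inhibitory receptor TIM-3, was at 62.5, 63.6 and 41.4 CPM in cells with Gzmb and at 35.6, 8.48 and 6.26 CPM in cells without, log2 ratios of 0.81, 2.91 and 2.73. Serpinb9, an inhibitor that protects cytotoxic cells from their own granzyme B, had log2 ratios of 1.20, 0.93 and 1.22. Il7r, a survival receptor of naive and memory cells, had log2 ratios of -2.0, -1.43 and -1.28. After thinning to equal depth, the log2 ratios of Tcf7 were -2.54, -3.07 and -2.23, those of Havcr2 1.39, 2.68 and 2.91, and those of Serpinb9 1.07, 0.76 and 1.43. Without shared barcodes they were -2.66, -2.85 and -1.95 for Tcf7 and 1.27, 3.59 and 2.91 for Havcr2. Of all genes measured, 11.6%, 6.86% and 8.77% were higher and 12.5%, 6.41% and 4.99% lower in cells with Gzmb.

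Eomes, Tox and Pdcd1 were higher in CD8 T cells with Gzmk than in those without, and Gzmb and Gzmf in CD8 T cells with Gzmc. Cells with Gzmk numbered 161, 183 and 108, and cells with Gzmc 107, 103 and 40. Of the 20 genes of T cell state, 6, 6 and 10 were higher and 10, 8 and 7 lower in cells with Gzmk. Of a list of 8 transcription factors that holds Eomes, 4, 5 and 4 were higher and 0 lower in them. Eomes was at 62.3, 71.2 and 76.7 CPM in cells with Gzmk and 22.6, 15.0 and 24.0 CPM in cells without, log2 ratios of 1.46, 2.25 and 1.67, whereas in cells with Gzmc its log2 ratios were -0.16, -0.38 and 0.32, within the rule of size. Tox and Pdcd1, which encode a regulator of exhausted T cells and the receptor PD-1, were higher with Gzmk on all 3 days, at log2 ratios of 1.41, 1.65 and 1.02 for Tox and 1.07, 1.25 and 1.04 for Pdcd1. Tcf7 was lower in both kinds of cell, at log2 ratios of -2.49, -2.61 and -2.34 with Gzmk and -1.68, -1.91 and -1.24 with Gzmc. Gzmf was at 312, 336 and 188 CPM in cells with Gzmc and 2.30, 2.70 and 2.14 CPM in cells without. These Gzmf levels rested on few cells. The highest cell of each day held 400, 222 and 108 Gzmf UMIs, beside 401, 39 and 12 of Gzmc. At day 14 the next highest held 77 and 46 Gzmf UMIs, beside 1 and 2 of Gzmc. Gzmb had log2 ratios of 1.08, 1.30 and 2.30 in cells with Gzmc, beside 0.38, 1.53 and 0.97 in cells with Gzmk. After thinning, Eomes in cells with Gzmk had log2 ratios of 1.09, 2.47 and 2.16. Over all genes, 5.93%, 5.66% and 6.60% were higher and 6.34%, 5.87% and 5.92% lower in cells with Gzmk. For cells with Gzmc the share of all genes is not given here. The depth of cells with Gzmk or Gzmc beside that of other cells is not given either. A direct test of Gzmk cells against Gzmc cells was not made, since 36, 39 and 5 cells held both.

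Trbv14 encodes the variable segment of the Pmel-1 beta chain, which host T cells can also use, and Trbv14 RNA was found in 79, 161 and 136 CD8 T cells, with medians of 26176, 18321 and 25919.5 UMIs against 12079, 10944 and 8437.5 in the 401, 403 and 374 without. Gzmb was at 2975, 780.0 and 561 CPM in cells with Trbv14 and at 1804, 1031 and 634 CPM in those without. Gzmk was lower in cells with Trbv14 on all 3 days, at 31.7, 24.8 and 8.57 CPM against 109, 127 and 80.6 CPM, and so was Prf1, at 135, 109 and 113 CPM against 603, 307 and 171 CPM. The distance was widest at day 3 for Prf1 and at day 14 for Gzmk. Gzma was at 1365, 162 and 4.90 CPM in cells with Trbv14 and at 360.5, 185 and 132 CPM in those without, so it was higher with Trbv14 at day 3 and lower at day 14. Without shared barcodes Gzma was at 2697, 187 and 5.09 CPM with Trbv14 and at 504, 244 and 144 CPM without, and Prf1 was then within the rule of size at day 14, at 123 against 173 CPM. After thinning, 46.8%, 14.5% and 0.75% of cells with Trbv14 had Gzma, against 16.1%, 11.1% and 7.51% of those without. All Gzmd and Gzme UMIs of day 3 were in CD8 T cells without Trbv14.

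Among genes that act with granzymes and perforin, 3 of 4 inhibitors were lower at day 14 than at day 3 in the CD8 T gate, where 6.06% of all genes measured were lower, and most others were within the rule of size. Between days 14 and 3 in the CD8 T gate, 0 of 6 genes of granule contents (such as Srgn and Nkg7) and 1 of 6 of granule release were lower, namely Stx11, a membrane fusion protein, at a log2 ratio of -0.69. The 3 serine protease inhibitors that were lower had log2 ratios of -1.03 for Serpinb9, -3.56 for Serpinb9b and -0.59 for Serpinb6b; Serpinb6a was within the rule. Of 8 transcription factors, 1 was lower, Prdm1 at -0.60. Ctsc and Ctsh, proteases that activate granzymes by trimming them, had log2 ratios of -1.43 and -1.27 at day 7 over day 3, and of 0.98 and 1.41 at day 14 over day 7, in the same order of days as the myeloid marker sum of the gate, and the part of myeloid RNA in this was not tested. In the NK gate over the CD8 T gate, where 15.8%, 16% and 11.3% of all genes measured were higher, 3 of the 4 inhibitors were higher on all 3 days, with log2 ratios of 1.76, 2.11 and 2.23 for Serpinb9, and Serpinb6a was lower, at -2.16, -1.02 and -1.15. Of the 8 transcription factors, 5, 6 and 6 were higher, among them Eomes at 2.88, 2.69 and 2.75 and Tbx21 at 1.36, 1.29 and 1.43. Fasl, the death receptor ligand that kills without granules, was higher in the NK gate too, at 1.45, 1.28 and 1.79, whereas Tnfsf10, the other death receptor ligand of the list, was at -0.76, -0.94 and -0.55 and lower by the rule at days 3 and 7. Of the other granzymes, Gzmg had 0, 178 and 0 UMIs in the NK gate and 28, 3 and 0 in the CD8 T gate.

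Over 12 points, the CD8 T, NK and Treg gates and the rest at 3 days each, some genes followed the members closely. Among 11580 genes, Serpinb6b followed Prf1 at a Pearson r of 0.985 on log2(CPM + 1), Chsy1 at 0.974 and Ctsw at 0.970. Gzmd was followed by its neighbour Gzme, a member, at 0.970 and then by genes at 0.842 at most, and Gzmf by Ptprk at 0.932. For Gzma the nearest gene was Ugcg at 0.964, for Gzmb Acot7 at 0.979, for Gzmc Golga4 at 0.924, for Gzme Pccb at 0.864 and for Gzmk Chchd3 at 0.956. Points of 1 day share a library and points of 1 gate share a cell type, so these values describe likeness over 12 sums and carry no p.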

How the data were processed

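CD45+ cells of B16F10 tumours were measured by 10x 3′ single-cell RNA sequencing, 1 library for each day. Per the submitters' processing notes, Cell Ranger 4.0.0 and the mm10 build were used by the authors, and the files hold UMI counts per gene and barcode. The deposited counts, not normalized, were used as they stand. No header or label records a filter on cells or the removal of doublets. Depth was 32413725, 29195648 and 35257704 UMIs at days 3, 7 and 14 over 2775, 2600 and 2902 barcodes with at least 1500 UMIs, the lowest total used here.

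The members and all lists of genes were chosen with earlier results of these data known. Cells were gated on UMIs of marker genes, a barcode that passed 2 gates counting in each. The counts of a gate were summed, scaled to CPM and compared as ratios with exact conditional (Clopper-Pearson) 95% intervals. Shares of cells have exact binomial intervals, and no test was run, since there is 1 library a day. PCR copies are collapsed by UMI, and the intervals cover counting error only. On counts simulated for the comparisons, 95.8% to 96.6% of true ratios lay inside the intervals over 7791 to 11323 genes. These counts were drawn with counting error alone, the error that the intervals assume, so only the calculation was checked. UMIs that lie in few cells, and differences between mice, were not simulated.

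Genes were named by a rule: the members always, up to 4 genes of each list of related genes by size of the log2 ratio among those past the rule of size, and the 3 genes nearest in pattern to each member. Genes of the state list that the text gives for cells with Gzmb, Gzmk or Gzmc were picked from those past that rule. No doublets were removed in the values given. Scrublet, run through scanpy 1.11.5, marked 2, 15 and 2 barcodes by its automatic threshold, too few to have worked at days 3 and 14, and the highest scores at 0.8% per 1000 cells (62, 54 and 67 barcodes) were left out as an alternative. Other alternatives changed the depth limit, thinning, gates, scale, shared barcodes and highest cells. Gene coordinates come from GENCODE M21, in which 32235 of 32285 gene IDs were found, and promoters from RefSeq. Python 3.11.15, numpy 2.4.6, scipy 1.17.1, pandas 2.3.3, Biopython 1.88, matplotlib 3.10.9 and R 4.3.3 with edgeR 4.0.16 (TMM factors only) were used.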

Additional observations from a re-analysis of the deposited data

Results flagged for a closer look

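Gzmd and Gzme differed in direction between gates from day 3 to day 7. For Gzmd, day 7 over day 3 gave a log2 ratio of 7.44 in the NK gate, with a floor of 3 counts at day 3, and -2.68 in the CD8 T gate. For Gzme it was 5.85 in the NK gate, with the same floor, and -2.46 in the CD8 T gate. The NK values rest on 9 cells with each gene at day 7, when the gate held 103 UMIs of Gzmd and 57 of Gzme once barcodes shared between libraries were left out, and the CD8 T value of Gzmd on 1 cell with 429 of 620 UMIs at day 3. Gzmc differed in direction over the longer span: its log2 ratio of day 14 over day 3 was 1.42 in the NK gate and -3.14 in the CD8 T gate. In each of these 3 genes the single library of each day moved one way in one gate and the opposite way in the other, and the difference between the gates was not tested. The mice of the libraries differ, and cells of both gates come from the same pools.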

How the results depend on the processing

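No paired analysis was possible because each day is 1 library and the groups share no replicate. The 12 comparisons were repeated with 13 other settings and with 2 more chosen after the data were seen. Each count of members past the rule of size added higher and lower calls. It did not show a change of direction or of which genes were called. Of these counts, 178 stayed within 1.5 times and 2 moved. The 7 of 8 lower in the CD8 T gate at day 14 against day 7 became 4 with the mean of per-cell CPM. The 3 called in the NK gate at day 14 against day 7, all lower, became 1 with Cd3e alone in the NK gate. Among the 178 was the count for the NK gate at day 14 against day 7 without shared barcodes. There, Gzmc was higher and Gzmd and Gzme lower, in place of the 3 lower members in all cells. The share of CD8 T cells with at least 2 granzymes at days 3, 7 and 14 was 42.3%, 31.2% and 11.6% with 3 UMIs as detected, and 41.1%, 27.0% and 11.7% after thinning to 3000 UMIs. Of the log2 ratios of single members, 964 moved by less than their interval, 238 moved and 5 that were past the rule of size changed sign. Another 24 changed sign from a reported value within that rule, among them Gzmc in the NK gate at day 14 over day 7, which was -0.42 in the report, 0.96 without shared barcodes and 0.17 with Cd3e alone in the NK gate. Calls of 6 of 96 ratios changed without shared barcodes, and of 11 without cells that held myeloid or B cell RNA. Gzmc in the NK gate over the CD8 T gate at day 3, 0.60 in the report, was -0.0077 without the top cell and -0.066 with the mean of per-cell CPM. With Cd3e alone in the NK gate, Gzme in the NK gate over the CD8 T gate at day 14 was 3.40, against -1.82, Gzmf was 0.40, against -5.12, and Gzmf in the NK gate at day 14 over day 7 was 1.56, against -4.0. Both Gzmf values rested on 1 cell with 51 of the 57 Gzmf UMIs of that NK gate at day 14. The cause of these moves was not tested beyond what each alternative leaves out.

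Depth limits the members found in few cells. In the Treg gate a count of 0 for Gzmd allows up to 3.51, 3.70 and 1.94 CPM at days 3, 7 and 14. With 3 mice pooled in 1 library a day, differences between days cannot be told apart from differences between mice or libraries, and every interval leaves these out. Myeloid RNA in gated cells, doublets and free RNA were not removed.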
